A study of Mus musculus with 12 samples.

Results

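The secretory antibody IgA is made in the colon wall by plasma cells and carried into the lumen by the epithelium. The 10 genes described here follow that route. They are Igha, Ighm, Igkc and Iglc1, which encode constant regions of the alpha and mu heavy chains and of the kappa and lambda light chains, together with Jchain, Mzb1, Derl3, Tnfrsf17, Cd79a and Pigr. They were chosen by name, and all 10 were found among the 55376 genes of the count table. Gene expression was measured by RNA-Seq of total RNA taken from proximal colon. There were 6 EPR cKO mice and 6 EPR fl/fl controls, each 12 weeks of age and each giving 1 library. EPR fl/fl mice carry loxP sites around part of EPR, a long noncoding RNA gene, and served as controls with the genotype label wt. EPR cKO mice carry the same floxed alleles and a CDX2P-NLS Cre transgene, in which human CDX2 regulatory sequence drives Cre in epithelial cells of the colon, the cecum and the end of the ileum. Cre there removes the promoter and exon 1 of EPR. By this design Pigr is the member that is expressed by the cells in which Cre acts, whereas the other members are expressed by plasma cells and B cells. The line was made from targeted embryonic stem cells and bred to C57BL/6.

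As background, each plasma cell secretes an antibody of a single rearranged heavy chain and a single rearranged light chain, both assembled from variable, joining and constant parts. Most plasma cells of the gut wall make IgA. The joining chain encoded by Jchain links IgA into dimers. The polymeric immunoglobulin receptor encoded by Pigr binds dimeric IgA and pentameric IgM at the base of epithelial cells and carries them to the lumen. Mzb1 and Derl3 encode proteins of the endoplasmic reticulum that serve antibody assembly and the removal of misfolded protein. Tnfrsf17 encodes BCMA, a receptor for the plasma cell survival factor APRIL, and Cd79a encodes a signalling part of the B cell antigen receptor.

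Whole tissue was used, so fewer plasma cells and less RNA per plasma cell cannot be told apart. Library totals ran from 13093904 to 33211041 counts. EPR, listed as Smim31, averaged 39.4 ± 14.5 CPM (counts scaled to library size) in the controls against 0.132 ± 0.151 CPM in EPR cKO (SD, n = 6), and its log2 fold change was −8.09 (edgeR adjusted p = 1.61e-06, SE 0.47). The library EPR cKO 1 stood apart. Its summed level of 8 smooth muscle genes was 9681 CPM, against 1144 to 5604 CPM in the other libraries. Its share of counts on immunoglobulin genes was 0.0471%, against 0.0709% to 0.217%. All 12 genes of an epithelial list had positive log2 fold changes (median 0.27), and all 8 smooth muscle genes (median −0.48) and all 8 adipocyte genes (median −1.38) had negative ones. With all 12 libraries 0 of these genes passed at an edgeR adjusted p of 0.05, where 2.46% of all tested genes did. Unadjusted p-values under 0.05 were found for 6 epithelial, 0 smooth muscle and 6 adipocyte genes, against 18.3% of all tested genes. Without EPR cKO 1, where 21.8% of all tested genes had an adjusted p under 0.05, 5 epithelial genes were higher at that threshold. All 8 smooth muscle and all 8 adipocyte genes were lower. The part of this difference in tissue makeup in the results below was not tested, apart from a fit with a composition covariate.

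The sequences that tell the lambda chains apart are shown because Iglc1 had the largest fitted change of the 10 genes. As background, each mouse lambda joining segment is followed by its own constant gene, so that Iglj1 goes with Iglc1. Iglv1 is mostly joined to Iglj1 or Iglj3, and Iglv2 mostly to Iglj2. The joining segments lie on the minus strand of chromosome 16 (GRCm38), Iglj1 at 19063225 to 19063262, Iglj2 at 19200198 to 19200235 and Iglj3 at 19067041 to 19067078. They are given 5′ to 3′ from GENCODE vM21, and capitals mark bases that differ from Iglj1 when the segments are laid end to end without gaps.
Iglj1: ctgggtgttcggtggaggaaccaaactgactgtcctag
Iglj2: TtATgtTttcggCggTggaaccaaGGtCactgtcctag
Iglj3: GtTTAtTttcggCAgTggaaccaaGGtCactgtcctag
Iglj2 differed from Iglj1 at 9 of 38 bases and Iglj3 at 11. The last 60 bases of Iglv1 (chr16:19085017-19085076, minus strand) and Iglv2 (chr16:19260401-19260460, minus strand) are shown to make plain how alike these genes are, with capitals where Iglv2 differs from Iglv1.
Iglv1: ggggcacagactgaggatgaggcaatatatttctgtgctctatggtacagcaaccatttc
Iglv2: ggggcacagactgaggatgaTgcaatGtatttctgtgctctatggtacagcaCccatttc
They differed at 3 of 60 bases. Of the 50-base stretches of Iglv1, 22.2% recurred in another gene, most often Iglv2, whereas 0% of those of Iglc1 did. The heavy chain variable gene Ighv2-2 (last 60 bases at chr12:113588267-113588326, minus strand) is shown with Ighv2-4 (chr12:113653291-113653350, minus strand), the gene with which it shared most stretches, because it followed Iglc1 across the libraries. Capitals mark where Ighv2-4 differs.
Ighv2-2: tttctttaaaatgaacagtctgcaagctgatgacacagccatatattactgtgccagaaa
Ighv2-4: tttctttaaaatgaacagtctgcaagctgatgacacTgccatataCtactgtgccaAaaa
Of the 50-base stretches of Ighv2-2, 55.4% recurred in another gene. The count of Ighv2-4 was 0 to 68 over the libraries, against 25 to 3150 for Ighv2-2.

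The members spanned a wide range of levels. On the TPM scale, which divides counts by exon length, the EPR fl/fl libraries held 884 ± 158 of Pigr, 645 ± 288 of Igkc, 333 ± 147 of Igha, 269 ± 106 of Jchain, 84.4 ± 56.0 of Iglc1 and 12.2 ± 4.11 of Ighm (SD, n = 6). Within each EPR fl/fl library, Igkc lay above Igha and Jchain above Iglc1. The EPR fl/fl ranges of neighbours in this order overlapped, except that the range of Iglc1 lay above that of Ighm, and that of Ighm above the remaining members. Those were Mzb1 at 1.73 ± 0.619 TPM, Derl3 at 1.37 ± 0.613 TPM, Tnfrsf17 at 1.23 ± 0.498 TPM and Cd79a at 1.05 ± 0.686 TPM, which overlapped. These 4 genes had 3 to 65 counts per library, so their fold changes are imprecise. The immunoglobulin chains, Jchain and Pigr thus made up the abundant members, and the plasma cell genes Mzb1, Derl3 and Tnfrsf17 had values as low as the B cell gene Cd79a. For Mzb1 the level is uncertain and may be too low, since 76.9% of its exon bases are also exon of another gene on the same strand.

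**Figure D1:**
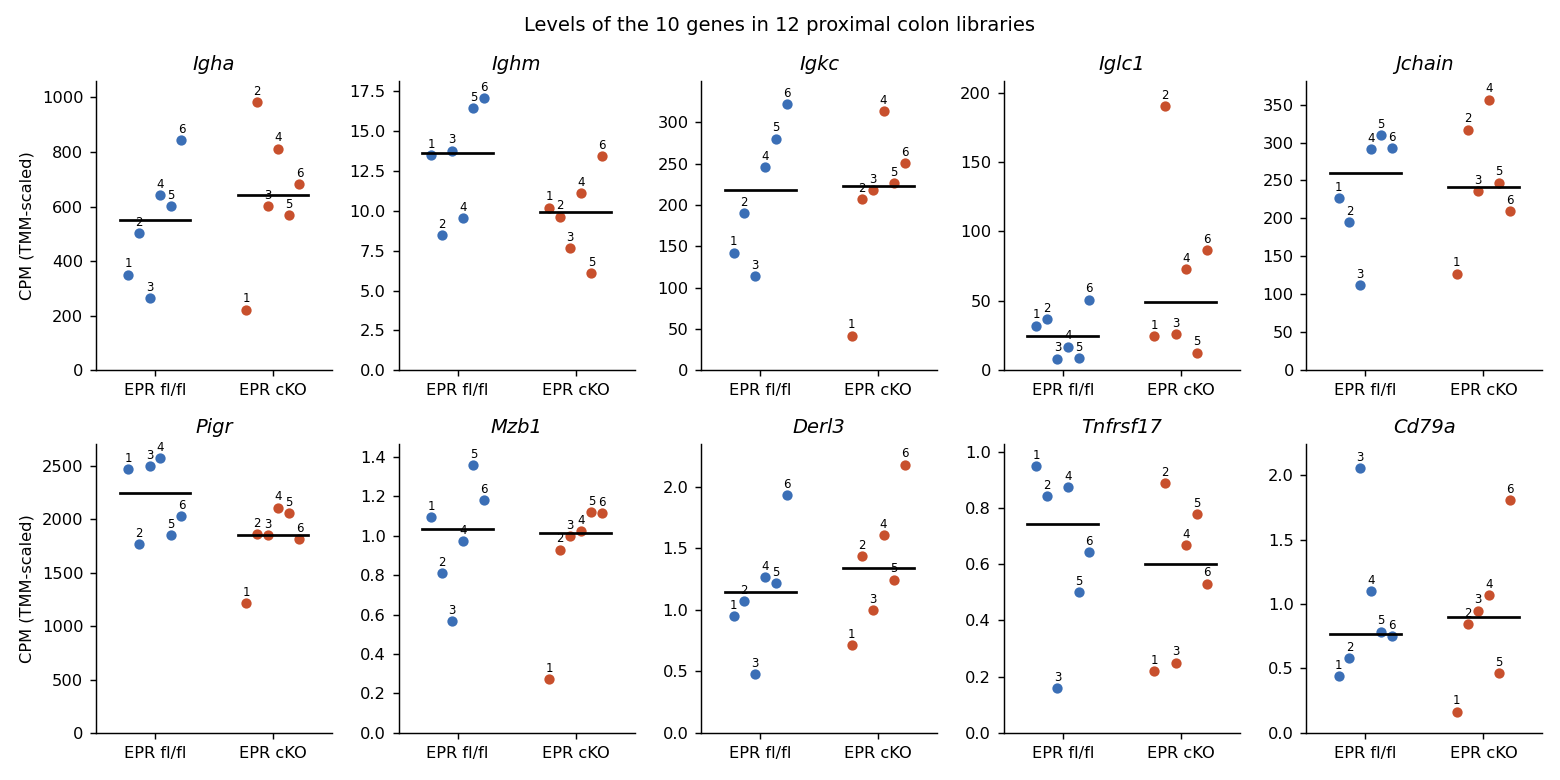
Level of each of the 10 genes in CPM (TMM-scaled, axes from 0) in 6 EPR fl/fl and 6 EPR cKO libraries, numbered by replicate, with the group median as a line. The groups overlap in every panel, EPR cKO 1 is the lowest of its group for 8 of the 10 genes, and EPR cKO 2 stands highest for Iglc1 at 190 CPM.

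The main comparison asked whether these genes differ between EPR cKO and EPR fl/fl colon. Of the 10 genes, 9 had at least 1 CPM in at least 4 libraries and were tested, and Tnfrsf17 did not. None of the 9 had an edgeR adjusted p under 0.05, where 2.46% of the 15952 tested genes did, 0.884% being higher and 1.57% lower in EPR cKO. Nor did a member pass the thresholds of the study on adjusted p (0.001) and fold change together, which 0.169% of tested genes did. At an unadjusted p under 0.05 there was 1 member, Iglc1, against 18.3% of all tested genes. None had groups that did not overlap, against 2.47% of all tested genes. The median log2 fold change was −0.04 over the 9 members and 0.02 over all tested genes. Without EPR cKO 1, again 0 of the 9 members had an adjusted p under 0.05, where 21.8% of 15836 tested genes did. The intervals below give the changes that these libraries leave possible.

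Among the heavy chains, Igha (chromosome 12, 113254830 to 113260236, minus strand), the constant gene of IgA, ran from 265 to 844 CPM in the controls with a median of 552, and from 222 to 984 CPM in EPR cKO with a median of 643. The lowest value was in EPR cKO 1 and the highest in EPR cKO 2, so that the cKO libraries enclosed the control range. The log2 fold change was 0.27 (SE 0.33, 95% interval −0.43 to 0.98, edgeR adjusted p = 0.667), which leaves room for either direction. Without EPR cKO 1 it was 0.43 (adjusted p = 0.247).

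Ighm (chromosome 12, 113418558 to 113422730, minus strand), the constant gene of IgM, ran from 8.49 to 17.1 CPM in the controls with a median of 13.6, and from 6.10 to 13.4 CPM in EPR cKO with a median of 9.93. The 4 highest libraries were all EPR fl/fl. Its fitted log2 fold change was −0.44 (SE 0.21, interval −0.90 to 0.02, edgeR adjusted p = 0.299).

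Within a library, the ratio of Igha to Ighm compares the classes without regard to library size. The log2 ratio was 5.29 ± 0.71 in the controls and 5.97 ± 0.82 in EPR cKO (SD, n = 6), a difference of 0.68 (two-sided exact permutation p = 0.147, 0.245 after Benjamini-Hochberg adjustment over 5 measures). EPR cKO 1 had the lowest ratio of its group, 4.44, where the other 5 ran from 5.67 to 6.67. Without that library the difference was 0.99 (exact p = 0.0216, 0.0540 adjusted over 5 measures). Counted per length, Igha made up 87.6% to 95.1% of heavy chain constant transcripts in the controls and 87.5% to 97.0% in EPR cKO. Genes of IgG made up 2.35% to 7.20% and 1.03% to 9.15%. In both groups IgA was therefore the main class, and the IgG share varied more between mice than between group medians, which were 5.16% and 4.68%.

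Of the light chains, Igkc (chromosome 6, 70726435 to 70726966, plus strand), the kappa constant gene, ran from 114 to 322 CPM in the controls with a median of 218, and from 42.0 to 314 CPM in EPR cKO with a median of 222. The groups overlapped throughout, and EPR cKO 1 alone lay below the control range. This gave a log2 fold change of −0.04 (SE 0.37, interval −0.85 to 0.77, edgeR adjusted p = 0.961). It was 0.15 without EPR cKO 1 (adjusted p = 0.679). It was −1.01 when the difference between the epithelial and smooth muscle lists was a covariate (adjusted p = 0.227).

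Iglc1 (chromosome 16, 19061618 to 19062071, minus strand), a lambda constant gene, ran from 8.28 to 50.9 CPM in the controls with a median of 24.5, and from 12.7 to 190 CPM in EPR cKO with a median of 49.5. EPR cKO 2, 6 and 4 exceeded every control, and the other 3 EPR cKO libraries lay within the control range. The fitted change was a log2 value of 1.43 (SE 0.64, interval 0.04 to 2.81, unadjusted p = 0.0440, edgeR adjusted p = 0.260). Without EPR cKO 2 it was 0.80 (adjusted p = 0.477), and without EPR cKO 1 it was 1.59 (adjusted p = 0.0885). Across all 12 libraries the highest value was 23.0 times the lowest, and its biological coefficient of variation of 72.5% exceeded that of 98.9% of tested genes.

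The other lambda constant genes had smaller fitted changes. Iglc2 was at 5.77 ± 2.02 CPM in the controls and 4.94 ± 1.64 CPM in EPR cKO (log2 fold change −0.22, edgeR adjusted p = 0.706). Iglc3 was at 2.28 ± 1.34 and 2.60 ± 0.675 CPM (0.18, adjusted p = 0.787). Whether their changes differ from that of Iglc1 was not tested. Iglc3 shared 22.3% of its 50-base stretches with another gene and Iglc2 7.65%, so reads could be split. Lambda genes made up 5.52% to 21.2% of light chain constant counts in the controls, with a median of 12.98%, and 8.55% to 48.9% in EPR cKO, with a median of 24.1%. The 2 highest shares were 48.9% in EPR cKO 2 (Wilson 95% interval 47.9% to 49.9%) and 39.9% in EPR cKO 1 (37.3% to 42.7%), intervals that cover counting error only. The log2 ratio of Igkc to Iglc1 was 3.30 ± 1.10 in the controls and 1.96 ± 1.49 in EPR cKO (SD, n = 6), a difference of −1.35 (two-sided exact permutation p = 0.108, 0.245 adjusted over 5 measures). It was −1.79 without EPR cKO 5 (exact p = 0.0325, 0.0813 adjusted over 5 measures).

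**Figure D2:**
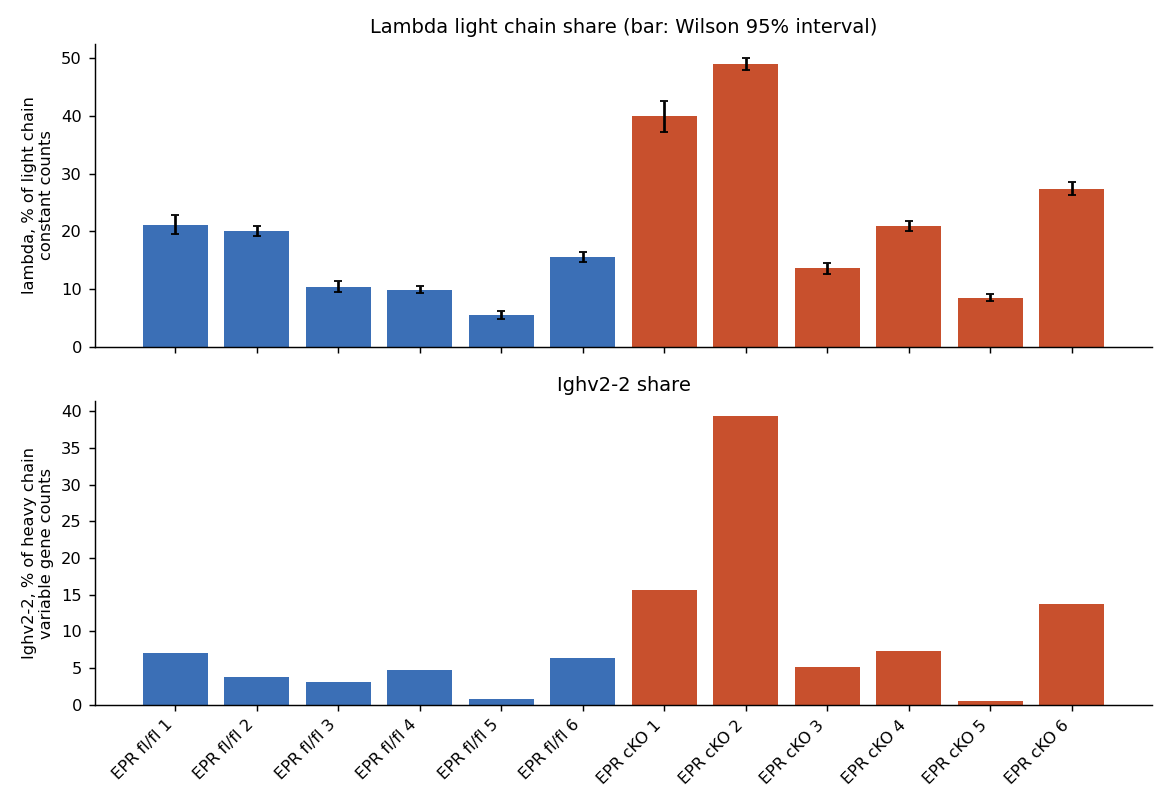
Share of lambda genes among light chain constant counts (top, in %, error bars are Wilson 95% intervals) and share of Ighv2-2 among heavy chain variable gene counts (bottom, in %) in each of the 12 libraries, EPR fl/fl in blue and EPR cKO in orange. EPR cKO 2 is highest in both panels, at 48.9% and 39.4%, and EPR cKO 5 and EPR fl/fl 5 are lowest in both.

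The genes whose log2 CPM followed Iglc1 most closely over the 12 libraries were Iglv1 (Pearson r = 0.994), Iglj1 (0.989) and Ighv2-2 (0.911). The points share libraries and depth, and these values are a description. Iglv1 went from 133 to 1287 counts in the controls and from 421 to 4283 counts in EPR cKO, the latter in EPR cKO 2, where Iglj1 had 149 counts against 3 to 60 elsewhere. Iglj2 was at 0 in every library. All of its bases are also exon of Iglc2 on the same strand, and how reads in such overlaps were counted is not given in the sources used here. Ighv2-2 had a log2 fold change of 1.85 (SE 0.83, edgeR adjusted p = 0.258).

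Since a plasma cell transcribes mainly the variable genes it has rearranged, variable gene counts describe which antibody chains were made in a sample. The table holds 183 heavy chain variable genes (Ighv), 160 kappa (Igkv) and 3 lambda (Iglv). Of these, 113 were tested, 54 with a positive and 59 with a negative log2 fold change and a median of −0.03. None had an edgeR adjusted p under 0.05. For 9.73% the unadjusted p was under 0.05, against 18.3% of all tested genes. They took 0.0482% ± 0.0138 of all counts in the controls and 0.0524% ± 0.0199 in EPR cKO (SD, n = 6), a difference of 0.00421 percentage points (two-sided exact permutation p = 0.669, 0.836 adjusted over 5 measures). The total amount of variable gene counts thus differed by less than the spread between mice.

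The leading heavy chain variable gene differed from mouse to mouse. In EPR fl/fl it was Ighv6-6 in replicate 1, Ighv1-81 in replicates 2 and 3, Ighv1-72 in 4, Ighv1-22 in 5 and Ighv7-3 in 6, with 6.89% to 18.3% of Ighv counts. In EPR cKO it was Ighv2-2 in replicates 1, 2 and 6, Ighv1-82 in 3 and Ighv1-81 in 4 and 5, with 5.80% to 39.4%. Ighv1-81 led in 4 of the 12 libraries and in both groups. The share of Ighv2-2 was 0.793% to 7.06% in the controls and 0.546% to 39.4% in EPR cKO, so the groups overlapped.

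The highest of these shares was that of Ighv2-2 in EPR cKO 2, with 3150 of 7996 Ighv counts (Wilson 95% interval 38.3% to 40.5%). The effective number of Ighv genes, the exponential of the Shannon entropy of their shares, was 39.6 ± 3.53 in the controls and 38.0 ± 12.9 in EPR cKO (SD, n = 6), a difference of −1.56 (two-sided exact permutation p = 0.840, also 0.840 adjusted over 5 measures). It was 14.8 in EPR cKO 2 and 33.7 to 50.8 in the other EPR cKO libraries, against 35.8 to 43.7 in EPR fl/fl. Without EPR cKO 2 the difference was 3.07 (exact p = 0.359).

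**Figure D3:**
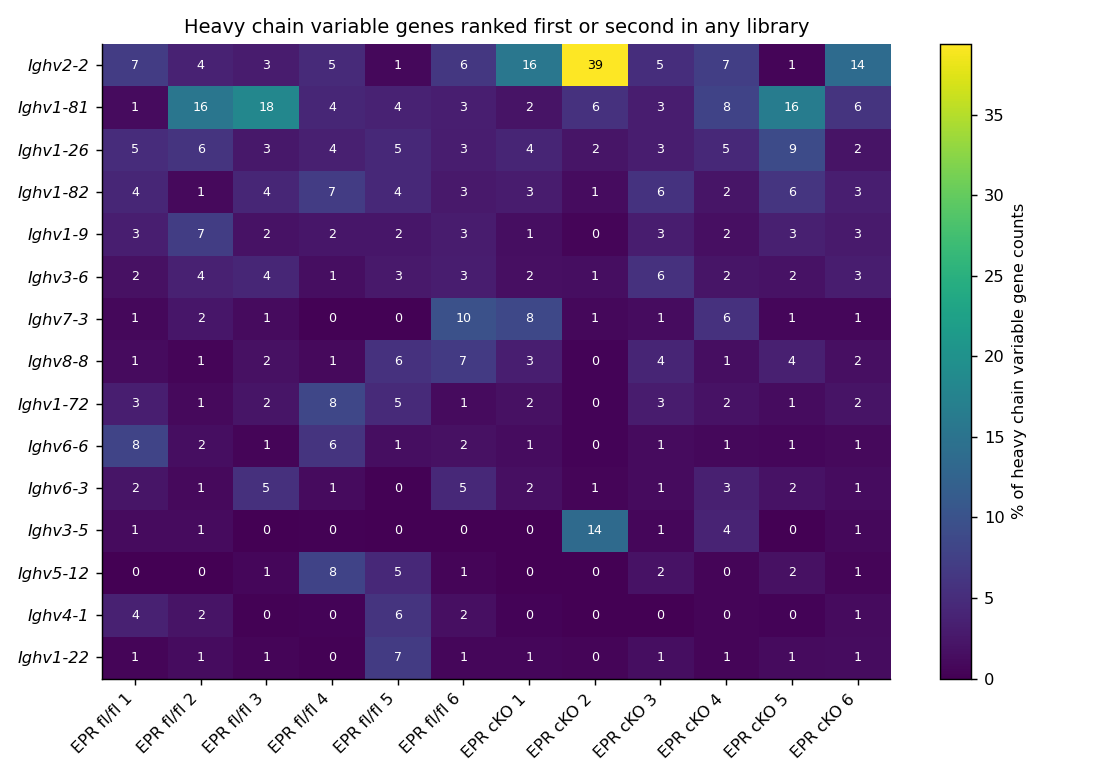
Share of heavy chain variable gene counts, in % and as colour, for the 15 Ighv genes that ranked first or second in any library (rows), in the 12 libraries (columns). The leading gene is not the same in all mice, 7 genes lead in 1 or more libraries, and Ighv2-2 in EPR cKO 2 holds the largest share, 39.4%.

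Jchain (chromosome 5, 88520512 to 88527891, minus strand), which encodes the chain that joins IgA and IgM units, ran from 112 to 310 CPM in the controls with a median of 259, and from 127 to 357 CPM in EPR cKO with a median of 242. The groups overlapped over nearly their whole ranges. Its log2 fold change was 0.07 (SE 0.26, interval −0.50 to 0.63, edgeR adjusted p = 0.907). Of all tested genes, Igha followed Jchain most closely (Pearson r = 0.881 over 12 libraries).

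The endoplasmic reticulum genes had few counts. Mzb1 ran from 0.569 to 1.36 CPM in the controls with a median of 1.03, and from 0.275 to 1.12 CPM in EPR cKO with a median of 1.01, and EPR cKO 1 alone lay below the controls. The log2 fold change was −0.09 (SE 0.31, interval −0.76 to 0.57, edgeR adjusted p = 0.886). In the annotation of the table, 76.9% of the exon bases of Mzb1 are also exon of AC121821.1 on the same strand. That gene had 0 counts in every library. If reads in shared bases were left out, the counts of Mzb1 are too low, so its level is uncertain. Derl3 (chromosome 10, 75893413 to 75895941, plus strand) ran from 0.474 to 1.93 CPM in the controls with a median of 1.14, and from 0.714 to 2.18 CPM in EPR cKO with a median of 1.34. Replicate 6 was the highest of both groups, which overlapped. Its fitted log2 fold change was 0.26 (SE 0.33, interval −0.45 to 0.96, adjusted p = 0.688).

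The receptor genes had few counts as well. Tnfrsf17 (chromosome 16, 11313812 to 11320074, plus strand) ran from 0.158 to 0.949 CPM in the controls with a median of 0.743, and from 0.220 to 0.888 CPM in EPR cKO with a median of 0.600. The groups overlapped. It was below 1 CPM in all 12 libraries, and in a fit with no low-count filter its log2 fold change was −0.23 (edgeR adjusted p = 0.819, where 0.809% of 36694 genes had one under 0.05). Cd79a (chromosome 7, 24897381 to 24902197, plus strand) ran from 0.438 to 2.06 CPM in the controls with a median of 0.769, and from 0.165 to 1.81 CPM in EPR cKO with a median of 0.898. The highest library was EPR fl/fl 3, which was the lowest of its group for 7 of the 10 genes. This gave a log2 fold change of −0.16 (SE 0.47, interval −1.18 to 0.86, adjusted p = 0.872).

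**Figure D4:**
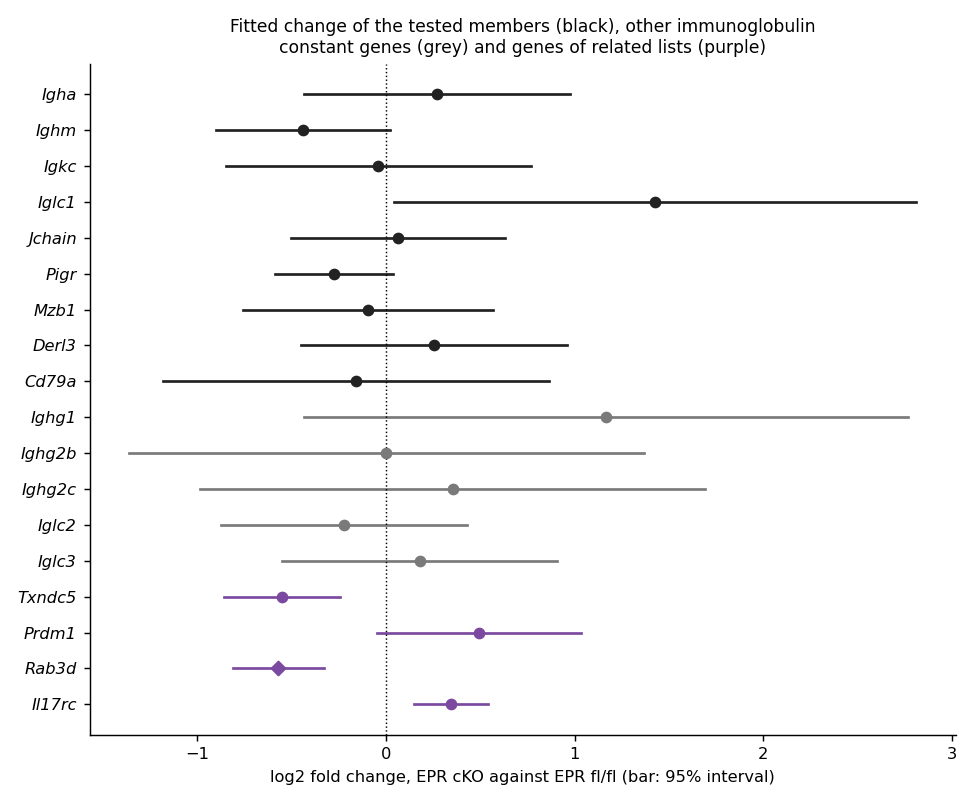
Log2 fold change of EPR cKO against EPR fl/fl with its 95% interval for the 9 tested members (black), the other tested immunoglobulin constant genes (grey) and 4 genes of related lists (purple), where a diamond marks an edgeR adjusted p under 0.05. Intervals are widest for Iglc1 and the IgG genes, and Rab3d at −0.57 is the gene with a diamond.

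Pigr (chromosome 1, 130826684 to 130852249, plus strand), the receptor that carries IgA across the epithelium, was the most abundant member. It ran from 1767 to 2572 CPM in the controls with a median of 2249, and from 1214 to 2109 CPM in EPR cKO with a median of 1855. The 3 highest libraries were EPR fl/fl 4, 3 and 1, and the lowest was EPR cKO 1. The fitted change was a log2 value of −0.27 (SE 0.14, interval −0.59 to 0.04, edgeR adjusted p = 0.333), and without EPR cKO 1 it was −0.20 (adjusted p = 0.231). With the composition covariate it was −0.51 (adjusted p = 0.0983).

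Since Pigr is made by epithelium and whole tissue mixes epithelium with other layers, Pigr was also set against 12 epithelial genes within each library. The log2 ratio ran from 1.37 to 2.10 in the controls with a median of 1.61, and from 0.94 to 1.45 in EPR cKO with a median of 1.13. All 6 EPR cKO libraries lay below the EPR fl/fl median, and 3 EPR fl/fl libraries lay below the highest EPR cKO value, so the groups overlapped. The means were 1.69 ± 0.34 and 1.14 ± 0.20 (SD, n = 6), a difference of −0.55 (two-sided exact permutation p = 0.00866, 0.0433 adjusted over 5 measures). With any 1 library left out it lay between −0.62 and −0.47, with an unadjusted exact p of 0.00649 to 0.0216. After adjustment over the 5 measures, p was under 0.05 in 4 of these 12 cases (without EPR fl/fl 2, 5 or 6 or EPR cKO 4) and 0.0540 to 0.108 in the other 8, among them 0.0540 without EPR cKO 1. The difference joins a negative fold change of Pigr with positive ones of the epithelial genes, which ran from 0.06 to 0.44. With all 12 libraries neither Pigr nor any of these epithelial genes had an edgeR adjusted p under 0.05. Without EPR cKO 1, 5 of the epithelial genes did and Pigr did not, where 21.8% of all tested genes did.

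**Figure D5:**
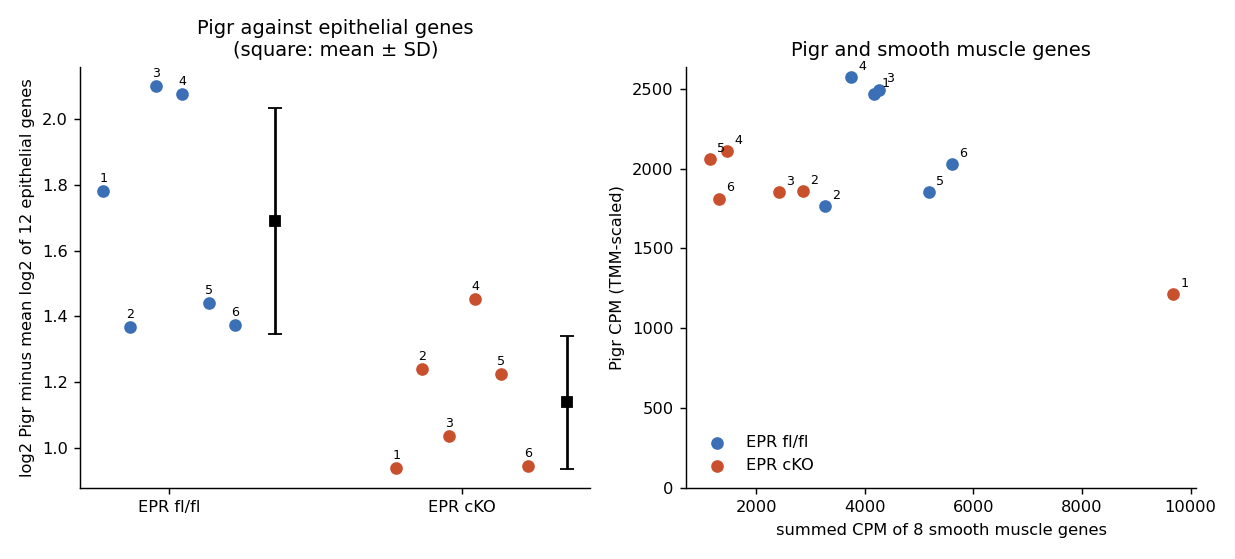
Left, log2 count of Pigr minus the mean log2 count of 12 epithelial genes in each library, numbered by replicate, with mean ± SD as squares. Right, Pigr in CPM against the summed CPM of 8 smooth muscle genes. The 6 EPR cKO libraries lie at 0.94 to 1.45 on the left, below the EPR fl/fl median of 1.61, and EPR cKO 1 lies apart on the right with 9681 CPM of smooth muscle genes.

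Genes around this receptor were listed as Pigr transcytosis and regulation genes, covering vesicle traffic, cytokine receptors and transcription factors. All 19 were tested, 13 with positive and 6 with negative log2 fold changes (median 0.11 against 0.02 over all tested genes). Of these, 1 had an edgeR adjusted p under 0.05 (2.46% of all tested genes did), Rab3d, a small GTPase of apical vesicles that takes part in transcytosis of the receptor. Rab3d ran from 118 to 160 CPM in the controls and from 62.4 to 97.9 CPM in EPR cKO, with no overlap. It fell from 132 ± 15.96 to 88.9 ± 13.2 CPM (SD, n = 6) (log2 fold change −0.57, SE 0.11, edgeR adjusted p = 0.0186). Which cells of the whole tissue expressed Rab3d was not tested, so its change cannot be assigned to transport of the receptor. The call was lost without EPR cKO 2 (log2 fold change −0.57, adjusted p = 0.0504) and without EPR fl/fl 4 (−0.55, 0.0636), with little change in the fold, and it held without EPR cKO 1 (−0.50, 0.00172). Without EPR cKO 1, 5 of the 19 genes passed, where 21.8% of all tested genes did, so the list was close to that background. Besides Rab3d these were Rab25, Myo5b, Il17rc and Ifngr1, all higher, with log2 fold changes of 0.34, 0.28, 0.36 and 0.27 (adjusted p from 0.00687 to 0.0433). Rab25 and Myo5b encode a recycling endosome GTPase and its motor, and Il17rc and Ifngr1 encode receptor chains for IL-17 and interferon gamma.

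The immunoglobulin constant list of 13 genes, which holds 4 members, had 9 tested genes, 6 with positive and 3 with negative log2 fold changes (median 0.18), and 0 with an adjusted p under 0.05. Besides Iglc1, its largest change was Ighg1 (1.17, SE 0.74, edgeR adjusted p = 0.416), with 0.538 to 8.69 CPM in the controls and 0.659 to 21.2 CPM in EPR cKO. The plasma cell list, which holds no member, had 13 tested genes, 7 with positive and 6 with negative values (median 0.02), and 0 with an adjusted p under 0.05. Its largest changes were in Txndc5 and Prdm1. Txndc5, which encodes a disulfide isomerase of the endoplasmic reticulum, was at 336 ± 43.4 CPM in the controls and 229 ± 46.4 CPM in EPR cKO (−0.55, SE 0.14, adjusted p = 0.0624), without overlap between the groups. Without EPR cKO 1 it passed (−0.46, adjusted p = 0.00487). Which cells of the whole tissue expressed Txndc5 was not tested, so its change cannot be assigned to plasma cells. Prdm1, which encodes the plasma cell factor Blimp-1, was at 12.0 ± 4.17 and 16.9 ± 5.10 CPM (0.49, SE 0.25, adjusted p = 0.319).

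Earlier stages of the B cell line were described by further lists. Of 16 B cell genes, 4 reached the expression filter, all with negative log2 fold changes (median −0.29). The largest were Ebf1 (−0.82, SE 0.38, edgeR adjusted p = 0.275) and Bank1 (−0.56, SE 0.29, adjusted p = 0.331), while Cd79b and Cd22 were at −0.009 and −0.02. Without EPR cKO 1, 2 of the 4 were positive and 2 negative. Ebf1 passed without EPR cKO 1 (−1.37, adjusted p = 0.00359). It is a B cell factor that is also expressed by fat and other stromal cells. From which cells of the whole tissue its change came was not tested. Of 9 germinal centre and follicle genes, 4 were tested, all with negative values (median −0.30), led by the follicle chemokine gene Cxcl13 (−0.78, SE 0.32, adjusted p = 0.228) and by Ltb (−0.36, SE 0.33, adjusted p = 0.570). Of 20 genes of IgA induction and homing, 12 were tested, 11 with negative values (median −0.21), led by Aldh1a2, an enzyme that makes retinoic acid (−0.75, SE 0.47, adjusted p = 0.414), and Cd40 (−0.58, SE 0.38, adjusted p = 0.424). In that list the homing integrin gene Itga4 passed without EPR cKO 1 (−0.61, adjusted p = 0.0286). In that fit 10 of its 12 tested genes were negative (median −0.12). All 4 germinal centre and follicle genes stayed negative as well (median −0.34). With all 12 libraries, 7521 of 15952 tested genes were negative.

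As a check on other lymphocytes, all 8 T cell genes had negative log2 fold changes with a median of −0.13, where 7521 of 15952 tested genes did. They were led by Cd2 (−0.92, SE 0.27, edgeR adjusted p = 0.0990) and Cd5 (−0.69, SE 0.34, adjusted p = 0.301). Without EPR cKO 1, 3 of the 8 were positive and 5 negative, with a median of −0.05. In the B cell, follicle, IgA induction and T cell lists, 0 genes passed at an adjusted p of 0.05 with all libraries. Those with an unadjusted p under 0.05 numbered 0 of 4, 1 of 4, 1 of 12 and 1 of 8, against 18.3% of all tested genes. Without EPR cKO 1, 1 of 4 B cell, 1 of 12 IgA induction and 1 of 8 T cell genes passed, all lower, against 21.8% of all tested genes. The T cell gene was Cd2 (−0.89, adjusted p = 0.0432). The summed T cell level ran from 18.5 to 64.6 CPM in the controls and from 21.2 to 52.1 CPM in EPR cKO, and the summed B cell level from 14.6 to 32.7 and from 7.53 to 30.2 CPM.

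For the other members, the tested genes most alike over the 12 libraries were, by Pearson r of log2 CPM, Iglv3 (0.914), Ighj2 (0.913) and Rnf180 (0.909) for Igha, and Pou2af1 (0.936), Mzb1 (0.922) and Tubgcp2 (0.919) for Igkc. They were 4933412E12Rik (0.916), Kmo (0.882) and Exoc4 (0.838) for Ighm, and Slc3a2 (0.927), Arfip2 (0.922) and Tc2n (0.914) for Pigr. After Igha, Spry2 (0.868) and Gm21769 (0.835) were most like Jchain. For the members with few counts they were Hist3h2bb-ps (0.944), Rps27rt (0.942) and Rpl14-ps1 (0.940) for Mzb1. For Derl3 they were Clec4n (0.897), Gm14303 (0.875) and Usp4 (0.872), and for Cd79a Slc5a9 (0.918), Hnf1aos1 (0.906) and Ptprk (0.898). These were the 3 highest of 15951 values for each member, over libraries that also share depth and tissue makeup. For Igha and Iglc1 the nearest genes were other immunoglobulin genes in 2 and 3 of 3 cases.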

How the data were processed

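Raw counts per gene were deposited by the authors in 1 table of 55376 genes, neither normalized nor filtered. Libraries were stranded and depleted of ribosomal RNA, paired reads were trimmed, aligned to mm10 with STAR 2.5.3a and counted with featureCounts against Ensembl annotation of the same build. The use of strand and the treatment of reads with several alignments or in overlapping genes are not given in the sources used here, which makes counts of similar variable genes uncertain. All 12 count columns bear the name of a sample, with 0 left over. Groups came from the sample labels.

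The filter of the study, 1 CPM or more in 4 or more libraries, left 15952 genes. Quasi-likelihood F tests were run in edgeR 4.0.16 (R 4.3.3) over all 12 libraries with TMM scaling and without covariates, with Benjamini-Hochberg adjustment over the 15952 genes. CPM values are TMM-scaled and TPM values were computed from counts and exon length. In 5 measures made within libraries (pseudocount 0.5 counts for ratios), group means were compared by two-sided exact permutation over 924 assignments with scipy 1.17.1, where the smallest possible p is 0.00216. Counts of 15952 genes were simulated for this comparison. A log2 change of 1 given to 200 genes was recovered for 69.5% of them (5.44% of calls false). For a change of 2 the recovery was 90.5% (5.24% false). Recovery was not computed for the members themselves. Their biological coefficient of variation ranked from 49.3% (Pigr) to 98.9% (Iglc1) of the way up the tested genes. Libraries of the same group differed beyond counting noise in all 30 pairs (chi-square per gene at least 20.9). Deviations of same-numbered libraries correlated between −0.242 and 0.340, and 2 of 6 libraries matched their own number best. As these values were mixed, the numbers were not used as pairs.

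The members and gene lists were chosen with earlier results of these data known. Named genes were the members, EPR, the genes of each list past an adjusted p of 0.05 or otherwise the 2 with the largest change, the 3 genes most like each tested member, and the leading Ighv gene of each library. Other genes named were chosen after their values were seen, among them Iglc2, Iglc3, Ighv2-4, Ighv3-5, Igkv4-58 and AC121821.1, as well as genes called without EPR cKO 1 (Rab25, Myo5b, Il17rc, Ifngr1 and Itga4). Alternatives were DESeq2 size factors, total counts, immunoglobulin genes left out of library sizes, other filters, limma-voom (limma 3.58.1) without and with quality weights, a Wald test in DESeq2 1.42.0, a replicate block, a composition covariate, other pseudocounts and indices, and each library left out.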

Additional observations from a re-analysis of the deposited data

Results flagged for a closer look

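Of 40 sets of 6 values, 3 held a library farther from the others than Dixon's 95% critical value of 0.625 allows, where chance gives about 2. EPR cKO 1 had 1214 CPM of Pigr, against 1813 to 2109 CPM in the other EPR cKO libraries. The same library had 0.275 CPM of Mzb1, against 0.930 to 1.12 CPM. It also held the highest smooth muscle level and the lowest immunoglobulin share, and their part in these 2 values was not tested. EPR cKO 2 had 0.423 CPM of EPR (Smim31), against 0 to 0.134 CPM in the other EPR cKO libraries and at least 21.2 CPM in EPR fl/fl.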

How the results depend on the processing

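The number of members with an adjusted p under 0.05 was 0 under each of 10 alternatives that used every library and with each of the 12 libraries left out. Igkc, Mzb1 and Cd79a reversed to 0.079, 0.042 and 0.076 (log2 fold change) with limma-voom quality weights, and Igha, Jchain and Derl3 to −0.19, −0.25 and −0.17 with the composition covariate. With 1 library left out, Igkc ran from −0.19 to 0.15, Jchain from −0.082 to 0.18, Mzb1 from −0.22 to 0.076 and Cd79a from −0.29 to 0.015, the last over 8 libraries, since it missed the expression filter without EPR fl/fl 3 or 4 or EPR cKO 4 or 6. The cause was not tested. The adjusted p of Iglc1 ran from 0.129 to 0.488 over the alternatives and from 0.0885 to 0.477 with 1 library left out. The direction of Ighm, Iglc1 and Pigr held throughout. EPR ran from −8.94 to −8.08 over the alternatives and from −8.85 to −7.86 with 1 library left out.

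Of the within-library measures, the ratio of Pigr to epithelial genes kept its direction under its 3 alternatives and with any 1 library left out. Its unadjusted exact permutation p was 0.00649 to 0.0312, the latter being the smallest that sign flips allow. Adjusted over 5 measures, a calculation added after seeing the data, it was 0.0324 to 0.108 with 1 library left out and lost its call in 8 of 12 cases. With 1 library left out, the Igha to Ighm ratio ran from 0.48 to 0.99, the Igkc to Iglc1 ratio from −1.79 to −0.98, the variable gene share from −3.43e-05 to 0.0110 percentage points and the effective number of Ighv genes from −4.12 to 3.07. Deviations of same-numbered libraries correlated between −0.242 and 0.340, and 2 of 6 libraries correlated best with their own number. With the replicate block, as sign flips of 6 differences (smallest p 0.0312), the Igkc to Iglc1 difference of −1.35 reached an exact p of 0.0312. In the edgeR fit with the replicate block, 245 genes were called in place of 392, Iglc1 was at 1.20 (adjusted p = 0.141) and Rab3d was at −0.58 (adjusted p = 0.0542).

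As alternatives chosen after seeing the data, list counts without EPR cKO 1 were 1 in place of 0 for plasma cell, B cell, IgA induction and T cell genes, 5 in place of 1 for Pigr transcytosis genes, 5 in place of 0 for epithelial genes and 8 in place of 0 for smooth muscle and for adipocyte genes, where 3451 genes were called in all. Leaving out other libraries gave 176 to 386 calls, quality weights 3263 and the DESeq2 Wald test 913. Total counts without TMM gave 39 higher and 247 lower calls, against 141 and 251. Depth limits the 4 members with at most 65 counts per library.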

Other observations

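In the library with the most Iglc1, EPR cKO 2, a further pair of variable genes was abundant, Ighv3-5 with 1083 counts (13.5% of Ighv counts) and the kappa gene Igkv4-58 with 1036 counts (21.6% of Igkv counts). In EPR cKO 4 the pair had 292 counts each. Over the other 10 libraries Ighv3-5 had 2 to 72 counts and Igkv4-58 2 to 55. Over all 12 libraries their log2 CPM had a Pearson r of 0.993, and over the 10 libraries without EPR cKO 2 and 4 it was 0.981, values that share depth and were computed after the pair was noticed. Whether the counts in the other libraries arose in those mice or from reads assigned to the wrong library was not tested. Igkv1-110 led the kappa genes in 8 of the 12 libraries, with 2.90% to 24.7% of Igkv counts in the controls and 6.28% to 21.5% in EPR cKO, and 50.9% of its 50-base stretches recurred in another gene.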
